A study of Mus musculus with 24 samples.

Results

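The genes described here are the collagen and laminin chains, the nidogens, perlecan (Hspg2), agrin (Agrn), Sparc and fibronectin (Fn1), measured in endothelial cell fractions from mouse brain. They were taken from the deposited tables by name and by the protein-coding biotype. Of 61 genes that matched, 60 reached a mean of 10 counts in at least 1 of the 8 groups, and the collagen X chain gene Col10a1 did not. These 60 are among 17159 genes tested and 45468 listed. They are 6 collagen IV chains, 6 collagen VI chains, 2 multiplexins (Col15a1 and Col18a1), 11 fibrillar chains, 9 FACIT chains (collagens that sit on the surface of fibrils), 2 collagen VIII chains, Col7a1, 4 transmembrane collagens, 2 other collagens, 11 laminin chains, 2 nidogens, 2 proteoglycans, Sparc and Fn1. The minimum count is the same as that of the test, so all 60 were tested.

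A basement membrane is a thin sheet of matrix that lies under endothelium and around pericytes, and in brain capillaries the endothelial sheet is apposed to that of the astrocyte endfeet. Laminins, each assembled from an alpha, a beta and a gamma chain, form a network at the cell surface, collagen IV forms a second, covalently cross-linked network, and nidogens and the heparan sulfate proteoglycans perlecan and agrin connect them. Integrins and dystroglycan bind the sheet to the cells. Fibrillar collagens and collagen VI lie mostly in the connective matrix outside it and are typically made by fibroblasts and mural cells.

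Animals were of the 2 genotypes Sox17flox/flox/Cdh5(PAC)-Cre-ERT2- (called wt) and Sox17flox/flox/Cdh5(PAC)-Cre-ERT2+ (Sox17iECKO, called KO), at the embryonic stage E15.5, postnatal day 5 (P5), postnatal day 9 (P9) and adulthood, with 3 libraries for each genotype and stage and 24 in all. The floxed alleles and the tamoxifen are thus shared by both genotypes, and the recombinase, which the Cdh5 promoter drives in endothelium, sets them apart. Tamoxifen was given to pregnant females as 2 injections of 1 mg on days 11.5 and 13.5, to pups as 100 µg on postnatal day 1, and to 6-week-old mice as 4 injections of 1.5 mg followed by 1 week. Cells were enriched by removing CD45-positive cells and selecting CD31-positive cells, and the labels call the 3 libraries of a group independent biological replicates. The dissociation kit for E15.5 and P5 was not the one for P9 and adults, so stage, kit and tamoxifen schedule cannot be told apart where they differ together.

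Library totals ranged from 12301779 to 19830600 counts. Sox17 was 8.34 to 27.2 CPM (TMM-scaled CPM, in which a library's counts are divided by its scaled total) in KO libraries at E15.5, P5 and P9 against 78.3 to 354 in wt, and 22.5 to 78.2 against 274 to 318 in adults, so each KO library lay below the wt libraries of its stage. All 14 endothelial marker genes had a mean of at least 1 CPM in every group. Markers of other cells were also present: summed pericyte markers reached 6006.8 CPM at P5, and summed oligodendrocyte markers 20396.1 CPM in adults. The 3 KO libraries at P9 stood apart from the rest on the third principal component, and both E15.5 libraries numbered 3 had the lowest pericyte and choroid plexus sums of their groups. The P9 KO group was itself uneven. Its replicate 3 was at −30.35 on the second component against −63.02 and −74.16, and its summed neuron markers were 346 CPM against 204 and 158. In such bulk fractions, fewer cells of a type and less RNA per cell cannot be told apart.

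The start that Col4a1 and Col4a2 share and 4 upstream regions are shown first, because the pair had close log2 fold changes in each wt comparison and the results below turn on the other 4 genes. Col4a1 and Col4a2, which encode the chains of the main collagen IV trimer, are transcribed in opposite directions from chromosome 8, and the annotated genes overlap by 22 bases. Col4a4 and Col4a3 lie head to head with 71 bases between them, and Col4a6 and Col4a5 with 1308. The Col4a1 and Col4a2 overlap on build GRCm38.p6 is chr8:11312805-11312826, shown on the plus strand. The other runs are the RefSeq regions before the starts of Nid1 (chr13:13437352-13437550, plus strand) and Lamb1 (chr12:31265043-31265233, plus strand), which fell more than 16-fold between P9 and adulthood, of Lama5 (chr2:180225860-180226109, minus strand), for which no fall was called, and of Col18a1 (chr10:77166549-77166780, minus strand), the member with the lowest adjusted p in KO at P9. Bases that an annotated exon covers were left out of the last 4. Capitals mark GGGCGG (the GC box) and CCAAT in either orientation.
Col4a1 and Col4a2 shared start: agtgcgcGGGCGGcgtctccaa
Nid1: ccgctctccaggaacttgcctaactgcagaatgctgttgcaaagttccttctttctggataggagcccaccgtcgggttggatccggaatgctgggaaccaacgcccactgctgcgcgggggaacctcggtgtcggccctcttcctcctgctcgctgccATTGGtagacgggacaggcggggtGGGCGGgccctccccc
Lamb1: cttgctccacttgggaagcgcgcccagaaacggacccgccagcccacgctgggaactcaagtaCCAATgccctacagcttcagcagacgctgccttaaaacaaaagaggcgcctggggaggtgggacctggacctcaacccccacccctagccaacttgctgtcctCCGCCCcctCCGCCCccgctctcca
Lama5: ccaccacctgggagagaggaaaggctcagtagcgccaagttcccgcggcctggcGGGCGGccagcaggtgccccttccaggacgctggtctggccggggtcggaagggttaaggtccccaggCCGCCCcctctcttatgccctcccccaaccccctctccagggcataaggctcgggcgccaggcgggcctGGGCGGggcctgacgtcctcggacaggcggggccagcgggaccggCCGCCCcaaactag
Col18a1: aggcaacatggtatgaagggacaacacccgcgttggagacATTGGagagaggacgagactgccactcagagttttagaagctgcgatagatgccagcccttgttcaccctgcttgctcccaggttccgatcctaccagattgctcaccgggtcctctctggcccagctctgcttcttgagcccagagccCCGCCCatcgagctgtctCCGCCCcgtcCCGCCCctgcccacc

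RefSeq promoter entries matched 43 of the 60 genes by symbol, and the entry nearest the annotated start was taken for each. Searched on both strands of the 250 bases before the start, GGGCGG was present in 60.5% of these 43 windows and in 32.7% of 32851 windows at all RefSeq starts, where a gene can have several. CCAAT was present in 32.6% and 33.8%, TATAAA in 9.3% and 12.4%, ACAAT (the core that Sox factors recognise) in 4.7% and 27.7%, and TGTTCT in 9.3% and 16.1%. The median GC content was 59.6% in the 43 windows and 52.4% in all windows. CCAAT and ACAAT share their last 4 letters, and the 4 long runs above held 1 to 4 matches of GGGCGG each.

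Levels between genes are compared as CPM per kilobase of the length given in the tables. In wt, Sparc, a secreted collagen-binding glycoprotein that is abundant in endothelium, ranked first at every stage, with 429 ± 61.6 CPM per kb at E15.5, 1614.8 ± 200 at P5, 1769.5 ± 125 at P9 and 485 ± 16.4 in adults (SD, n = 3 here and below). Col4a1 (421 ± 46.8) was within the spread of Sparc at E15.5 and below it afterwards. Col4a2 followed Col4a1 at E15.5, P5 and P9, at 332 ± 34.8, 828 ± 85.8 and 746 ± 39 CPM per kb.

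In the adult wt group, Fn1 (152 ± 9.83 CPM per kb) came after Sparc, and Col4a1 (130 ± 11.4), Col4a2 (123 ± 8.18) and Agrn (122 ± 7.94) followed with differences smaller than their spread. Lamb2 (105 ± 4.37) was next and was above every other laminin chain. Sparc, Fn1, Col4a1 and Col4a2 together held 55.5% of the summed CPM of the 60 genes in E15.5 wt, 65.1% in P5 wt, 65.2% in P9 wt and 56.2% in adult wt. That summed level was 14279.3 ± 1857.3 CPM at E15.5, 37814.5 ± 3877.8 at P5, 34250.4 ± 1009.5 at P9 and 9073.1 ± 343 in adults. The wt libraries of E15.5 and of adults therefore lay below those of P5 and P9, and those of adults below those of E15.5.

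**Figure D1:**
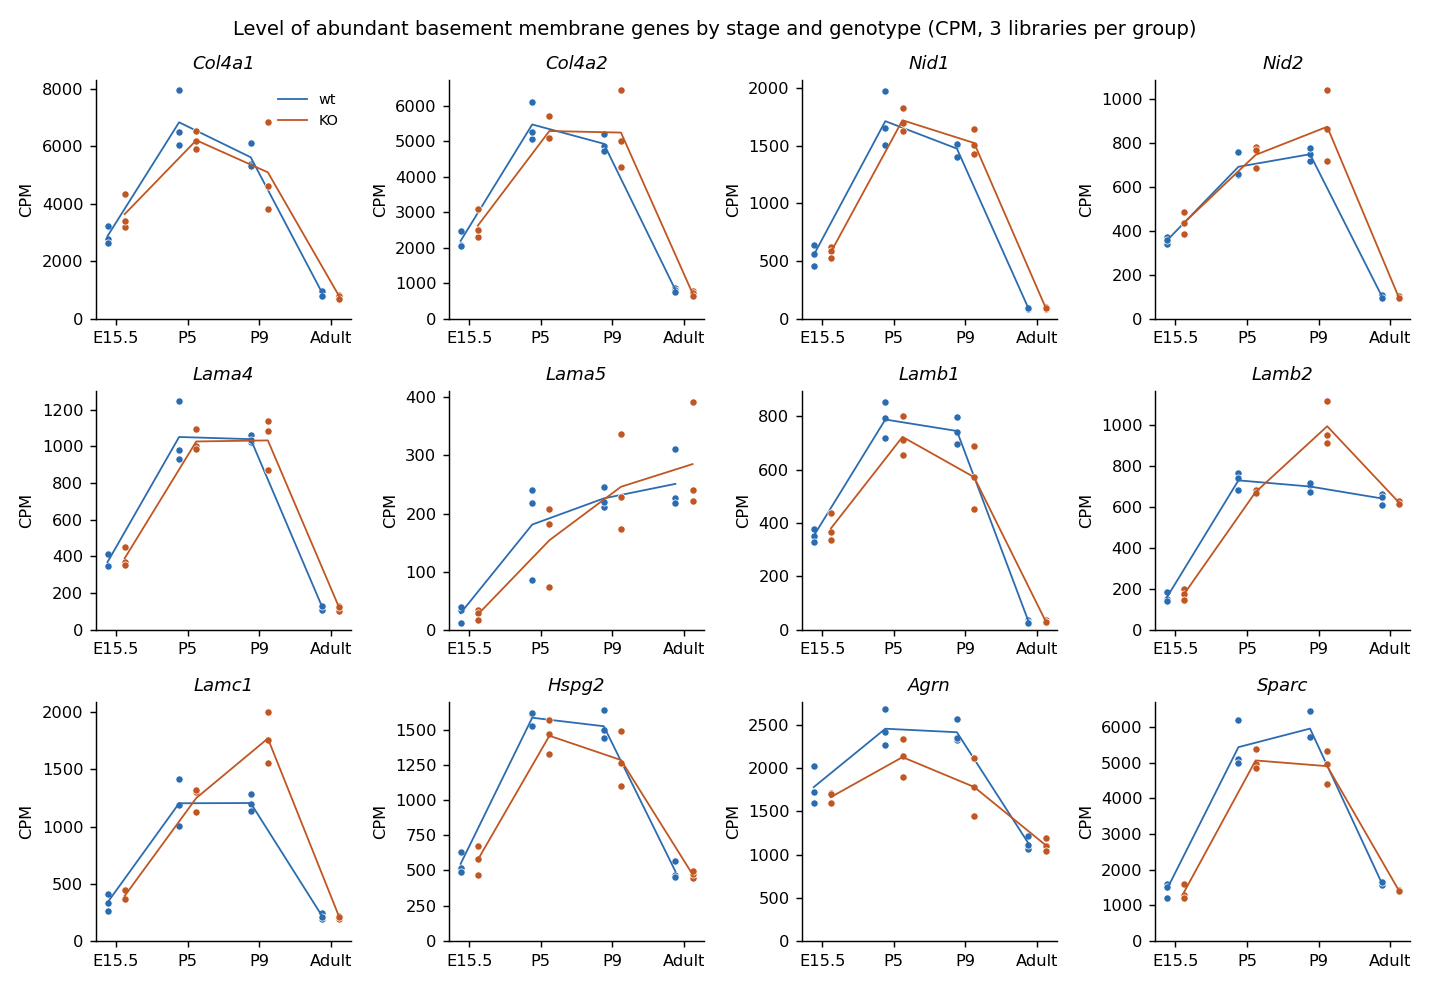
Levels of 12 abundant basement membrane genes in CPM (vertical axes, each from 0) by stage (horizontal axes), with 1 point per library, 3 libraries per group and lines through the group means for wt (blue) and KO (orange). Most panels peak at P5 or P9 and are low in adults, such as Nid1 at 88.3 CPM in adult wt against 1475.4 in P9 wt, while Lamb2 stays near its P9 level in these TMM-scaled values. With counts scaled to endothelial markers, which rose themselves, the rises of Col4a1, Col4a2, Nid2, Lamb1 and Agrn from E15.5 to P5 turn into falls, and Nid1, Lama4 and Hspg2 take a negative sign without passing the test.

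Between E15.5 and P5 in wt, most components of the basement membrane proper rose as a share of the library, and several collagens of lower level fell. All 5 laminin alpha chains, 5 of 6 collagen IV chains, both nidogens, both proteoglycans, Sparc and Fn1 rose. The falls included Col2a1, the cartilage fibril chain, 3 collagen VI chains, and the epithelial laminin chain Lamb3. Lamb3 had 290 counts over all 24 libraries, with its highest group mean (37.33 counts) in E15.5 KO. A gene this low can reach the minimum count through E15.5, so its fall is in part set by the selection. Of the 60 genes, 31 rose and 12 fell at an adjusted p under 0.05 in edgeR's quasi-likelihood test, beside 36.2% of all genes higher and 30.4% lower. All 14 endothelial markers rose too, by a median of 1.75 on the log2 scale.

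Fn1, which carries integrin-binding sites, had 1258.1, 1579.2 and 1347.8 CPM in the E15.5 wt libraries and 6788.3, 7968.3 and 6006.6 at P5 (log2 fold change 2.31, SE 0.14, adjusted p = 2.5e-12). Sparc had 1210.7, 1605 and 1518.9 CPM against 5093.6, 6212 and 5005.7 (1.91, SE 0.13, adjusted p = 2.0e-11). In both genes every P5 library was more than 3 times the highest E15.5 library. Col4a1 had 2757.8, 3230.1 and 2622.7 CPM at E15.5 and 6031.2, 7944.5 and 6504.8 at P5 (1.25, SE 0.17, adjusted p = 8.5e-07), and Col4a2 moved from a mean of 2194.2 to 5478.7 CPM (1.32, SE 0.14, adjusted p = 2.6e-08).

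Among the laminin chains, Lamb2 had 150, 184 and 139 CPM at E15.5 and 683, 764 and 741 at P5 (2.21, SE 0.12, adjusted p = 4.5e-13). Lama5, the alpha chain of mature vessels, had 33.7, 39.6 and 12.5 CPM against 240, 85.5 and 218 (2.66, SE 0.43, adjusted p = 8.3e-06), so the P5 libraries did not overlap those of E15.5 but spread widely. Lama4, the alpha chain of endothelial laminin, moved from 369 ± 36.6 to 1051.6 ± 170 CPM (1.51, SE 0.13, adjusted p = 1.2e-09). Lamc1, the common gamma chain, moved from 336 ± 74.9 to 1204.4 ± 207 CPM (1.84, SE 0.15), and Lamb1 from 352 ± 24.2 to 788 ± 67.8 (1.16, SE 0.15). The groups did not overlap for any of these chains.

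Nid1 rose from 559, 639 and 457 CPM to 1657.5, 1978.6 and 1505.6 (1.63, SE 0.12, adjusted p = 1.2e-10), and Nid2 from 355 ± 17.1 to 691 ± 60.6 (0.96, SE 0.12). Hspg2 rose from 547 ± 74.8 to 1584.4 ± 51.3 CPM (1.53, SE 0.14) and Agrn from 1781.3 ± 218 to 2457.8 ± 212 (0.46, SE 0.13, adjusted p = 0.0026, or 0.054 when just those 6 libraries were fitted). Falls were led by Col2a1, from 97.2 ± 43.8 to 12 ± 2.49 CPM (−3.00, SE 0.30). Col15a1, a multiplexin collagen of vessel and muscle basement membranes, moved from 61 ± 6.17 to 39.2 ± 3.43 CPM (−0.64, SE 0.23, adjusted p = 0.019), a call that ended without E15.5 wt replicate 3 (0.062), P5 wt replicate 1 (0.053), P5 wt replicate 2 (0.061) or both E15.5 libraries numbered 3 (0.062).

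These directions depend on what the counts are scaled to. Of all genes tested, 66.6% were called in this comparison, near the 71.7% of the members. When the counts were scaled to the 14 endothelial markers, a choice made after seeing the data, the median of all genes moved from 0.09 to −1.53 and the split of members from 31 higher and 12 lower to 8 higher and 40 lower. Of the 31 rises, 20 took a negative sign, not all of them past the test, among them Col4a1 (−0.43), Col4a2 (−0.36), Nid1 (−0.05), Nid2 (−0.72), Lama4 (−0.17), Lamb1 (−0.52), Hspg2 (−0.14) and Agrn (−1.21). Fn1 (0.63), Sparc (0.24), Lamb2 (0.54), Lama1 (0.32), Lama2 (1.05), Lama5 (1.03), Col4a3 (0.71) and Col8a1 (1.10) were still called higher. Pericyte markers rose over the same interval in 11 of 13 cases, and their part in the result was not tested.

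From P5 to P9 in wt, the abundant core genes did not pass the test, and the 7 members that did were all lower at P9. For Col4a1, Col4a2, Nid1, Nid2, Lama4, Lamb1, Lamb2, Lamc1, Hspg2, Agrn, Sparc and Fn1 the log2 fold changes ran from −0.28 (Col4a1, SE 0.17, adjusted p = 0.36) to 0.13 (Sparc, SE 0.13, adjusted p = 0.61). The largest level among the called genes was that of Col18a1, whose product is the heparan sulfate proteoglycan from which endostatin is cleaved. It had 1029.9, 1117.8 and 916 CPM at P5 and 532, 533 and 538 at P9 (−0.93, SE 0.14, adjusted p = 0.00042), with no overlap. The share of all genes called was 5.12%, and 2.45% were lower, against 11.7% of members.

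Col15a1, the other multiplexin, had 37.7, 36.9 and 43.2 CPM at P5 and 14.2, 14.2 and 20 at P9 (−1.28, SE 0.24, adjusted p = 0.0027). Col5a1, a chain of the thin fibrillar collagen V, had 55.5, 60.3 and 71.7 CPM against 17.7, 17.3 and 18.9 (−1.79, SE 0.33, adjusted p = 0.0025). Both were at or below 20 CPM in every P9 library and at least 36.9 in every P5 library. Lama1, the alpha chain of the first embryonic laminin, moved from 197 ± 0.406 to 135 ± 6.13 CPM (−0.55, SE 0.13, adjusted p = 0.015), a call that ended without P5 wt replicate 3 (0.052), P9 wt replicate 2 (0.08) or P9 wt replicate 3 (0.05). Col6a3 (−1.32), Col22a1 (−1.24) and Col19a1 (−2.56) were the others. The call of Col6a3 ended without P9 wt replicate 2 (0.068), that of Col22a1 without P5 wt replicate 3 (0.078), P9 wt replicate 2 (0.082) or P9 wt replicate 3 (0.077), and that of Col19a1 without P5 wt replicate 3 (0.065) or any 1 of the P9 wt libraries (0.073 to 0.082).

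The change from P9 to the adult was a fall of nearly all the abundant basement membrane genes, of very different size between chains of the same family. Lamb1, Lama1 and Nid1 fell more than 16-fold and Lama4 8.45-fold, the collagen IV pair about 6-fold, and Agrn, the smallest fall among the core genes, 2.14-fold. Lamb2 and Lama5 did not pass the test with the main scaling. Of the 60 genes, 29 fell and 13 rose, 70% in all, beside 61.1% of all genes tested (30.3% lower, 30.9% higher). The median over members was −0.45 on the log2 scale and over all genes 0.02.

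Lamb1 had 743, 695 and 796 CPM at P9 and 37.7, 29.7 and 26.8 in adults (−4.57, SE 0.17, adjusted p = 7.8e-16). Its paralog Lamb2, the beta chain that replaces it in many mature basement membranes, had 707, 671 and 718 CPM against 662, 648 and 611 (−0.13, SE 0.11, adjusted p = 0.34). The adult libraries of Lamb2 all lay below those of P9, with means of 699 and 641 CPM, whereas Lamb1 was 23.7-fold lower. Lama4 had 1061.1, 1022 and 1036.1 CPM against 129, 110 and 130 (−3.08, SE 0.14, adjusted p = 1.7e-14), while Lama5 had 212, 219 and 246 against 226, 311 and 218 (0.16, SE 0.39, adjusted p = 0.75), with overlapping groups.

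Lama1 had 141, 129 and 136 CPM at P9 and 6.61, 5.27 and 5 in adults (−4.56, SE 0.16, adjusted p = 4.2e-16). Lamc1 had 1199.8, 1135.1 and 1284.8 CPM against 243, 193 and 208 (−2.49, SE 0.16, adjusted p = 3.4e-12). Lama3, an alpha chain known mainly from epithelia, went the other way, from 14.7, 14.7 and 16.7 CPM to 41.8, 43.4 and 40.1 (1.44, SE 0.21, adjusted p = 2.3e-06). Lama2, the alpha chain of muscle and of astrocyte and mural cell basement membranes, fell from 59.1 ± 6.45 to 31.5 ± 1.94 CPM (−0.90, SE 0.29, adjusted p = 0.010), and that call ended with the endothelial scaling (0.25).

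**Figure D2:**
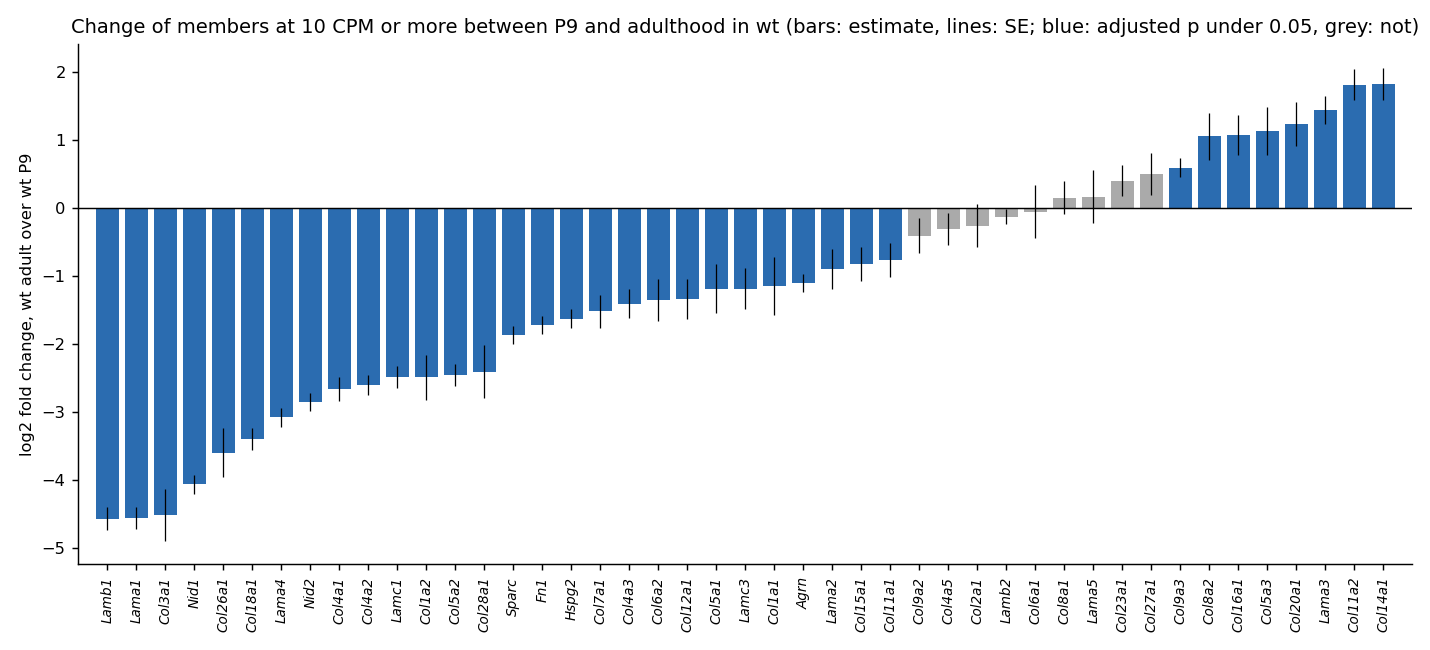
Log2 fold change from P9 to the adult in wt for the 45 members with a mean of at least 10 CPM at either stage (vertical axis), sorted along the horizontal axis; bars are edgeR estimates, lines are SE, and blue bars passed an adjusted p under 0.05. The values run from −4.57 for Lamb1 to 1.82 for Col14a1, with Lamb2 (−0.13) and Lama5 (0.16) among the grey bars near 0.

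Col4a1 had 6124.4, 5394 and 5316.3 CPM at P9 and 919, 945 and 799 in adults (−2.66, SE 0.18, adjusted p = 9.1e-12), and Col4a2 5222.4, 4861.1 and 4721.9 against 862, 819 and 754 (−2.60, SE 0.15, adjusted p = 5.9e-13). The ratio per kb of Col4a2 to Col4a1 in this head-to-head pair was 0.907 ± 0.0258 at P9 and 0.944 ± 0.0446 in adults. It was lower earlier in wt, at 0.788 ± 0.0129 at E15.5 and 0.83 ± 0.0347 at P5. The pair Col4a3 and Col4a4 parted: Col4a3 fell from 21.7, 19.4 and 22.4 CPM to 7.82, 8.15 and 7.63 (−1.41, SE 0.21, adjusted p = 2.7e-06). Col4a4 rose from 2.29, 1.98 and 3.28 CPM to 6.53, 8.56 and 4.86 (1.37, SE 0.38, adjusted p = 0.0025). Col4a5 (−0.31, SE 0.23) and Col4a6 (−0.46, SE 0.38) did not pass. Col4a1 and Col4a2 made up 52.3% and 47.4% of collagen IV per kb at P9 and 50.7% and 47.8% in adults, so the other chains held little of it.

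Nid1 had 1510.9, 1399.1 and 1516.1 CPM at P9 and 93.1, 83.3 and 88.4 in adults (−4.06, SE 0.14, adjusted p = 3.4e-16), and Nid2 719, 747 and 778 against 109, 107 and 94.8 (−2.85, SE 0.13, adjusted p = 8.6e-15). The ratio per kb of Nid1 to Nid2 was 1.59 ± 0.094 at P9 and 0.69 ± 0.0626 in adults, without overlap. Hspg2 fell from 1524 ± 101 to 494 ± 61.8 CPM (−1.63, SE 0.14) and Agrn from 2416.9 ± 136 to 1128.7 ± 73.7 (−1.10, SE 0.13). Sparc fell from 5958 ± 420 to 1632.3 ± 55.2 CPM (−1.87, SE 0.13) and Fn1 from 5832.3 ± 128 to 1770.7 ± 115 (−1.72, SE 0.13). Col18a1 fell further, from 535 ± 3 to 50.4 ± 3.51 CPM (−3.40, SE 0.16, adjusted p = 2.1e-14).

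Among the fibrillar chains, Col3a1, the chain of collagen III in elastic tissue, had 165, 127 and 138 CPM at P9 and 4.94, 6.37 and 7.22 in adults (−4.51, SE 0.38, adjusted p = 4.1e-10). Col1a2 fell from 147 ± 22.6 to 26.1 ± 2.06 CPM (−2.49, SE 0.33) and Col5a2 from 112 ± 10.2 to 20.3 ± 2.31 (−2.46, SE 0.16). Rises were seen for Col11a2, from 39, 48.1 and 31.8 to 123, 145 and 152 CPM (1.81, SE 0.23, adjusted p = 4.8e-07), and for the FACIT chain Col14a1, from 7.46, 7.64 and 7.07 to 27.3, 25.2 and 26.8 (1.82, SE 0.24, adjusted p = 6.0e-07). Col9a3 (0.59, SE 0.14) and Col16a1 (1.07, SE 0.29) also rose, as did Col20a1, whose counts are uncertain because another gene on the same strand overlaps it.

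Other cell types changed over the same interval. All 13 pericyte markers fell (median −2.47), from a summed 3261.3 to 4388.1 CPM in the P9 wt libraries to 645 to 779 in adults, and 10 of 14 endothelial markers fell (median −0.58). Of the fibroblast markers 6 of 12 fell and 1 rose, with sums of 1021.5 to 1175.5 CPM at P9 and 796 to 843 in adults. Summed oligodendrocyte markers went from 904 to 1606.3 CPM at P9 to 16890.8 to 20396.1 in adults. Of the other lists, 6 of 8 astrocyte, 7 of 8 microglia, 4 of 7 neuron and 4 of 5 choroid plexus markers rose, 4 of 7 red cell markers fell, and smooth muscle markers split evenly. The part of these shifts in the falls was not tested. With the counts scaled to the endothelial markers, the median of all genes was 0.499 and the split became 20 higher and 23 lower. More members were thus called higher than the 13 of the main fit, and values of Lamb2 and Lama5 with that scaling are not given here. The core falls remained called: Nid1 −3.56, Lamb1 −4.06, Lama4 −2.57, Nid2 −2.34, Col4a1 −2.15, Col4a2 −2.10, Lamc1 −1.99, Sparc −1.36, Fn1 −1.21, Hspg2 −1.12 and Agrn −0.59.

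The makeup of the laminin families shows the same shift as shares. Per kb, Lama4 made up 77.5% ± 4.66 of the alpha chains in E15.5 wt, 68.8% ± 1.22 in P9 wt and 26.7% ± 4.83 in adult wt, and Lama5 6.17% ± 2.62, 15.8% ± 1.1 and 56.7% ± 5.88. Lama3 was 1.14% ± 0.0729 at P9 and 10.1% ± 0.593 in adults. Among the beta chains, Lamb1 was 57.7% ± 1.91 at E15.5, 39.8% ± 2.24 at P5, 39.5% ± 0.858 at P9 and 2.9% ± 0.406 in adults.

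The ratio of Lamb2 to Lamb1 per kb was 0.7, 0.795 and 0.693 in the E15.5 wt libraries, 1.41, 1.46 and 1.68 at P5, 1.55, 1.57 and 1.47 at P9 and 28.7, 35.7 and 37.2 in adults. The ratio of Lama5 to Lama4 was 0.103, 0.102 and 0.038 at E15.5 and 1.85, 3 and 1.77 in adults. It was 0.26, 0.0727 and 0.249 at P5, where 1 library lay within the E15.5 range, and 0.212, 0.227 and 0.251 at P9. Ratios within a library do not depend on the scaling, but they can depend on the mix of cells. From P9 to adults in wt, summed pericyte markers went from 3261.3 to 4388.1 CPM to 645 to 779. Summed choroid plexus markers went from 1682.5 to 2523.4 CPM to 5483.4 to 6314.1, and oligodendrocyte markers rose too. The part of these shifts in the ratios and shares was not tested. In the step from E15.5 to the adult as a whole, 17 members rose and 32 fell, 81.7% beside 69.6% of all genes tested (35.2% higher, 34.3% lower), and with the endothelial scaling the split was 9 and 42. Lama5 rose from 28.6 ± 14.2 to 251 ± 51.5 CPM (3.13, SE 0.43) and Lamb2 from 158 ± 23 to 641 ± 26.6 (2.02, SE 0.12), and both were still called higher with that scaling (1.88 and 0.77).

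**Figure D3:**
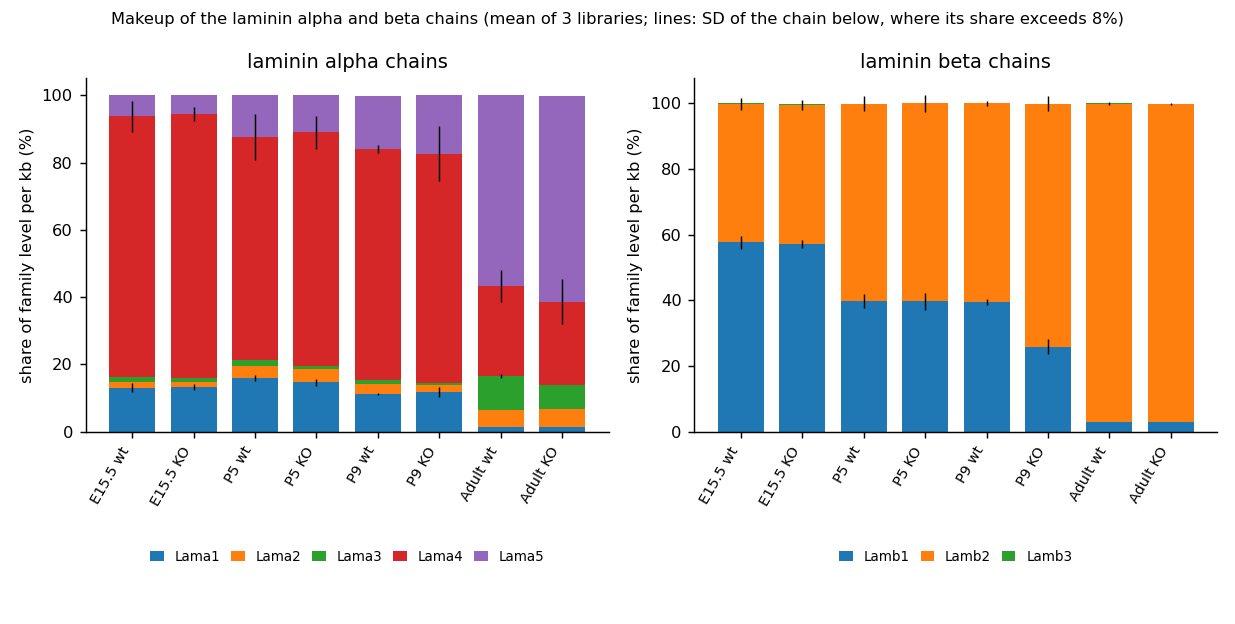
Share of each chain in the summed level per kb of the laminin alpha and beta families (vertical axes, %), as stacked means of 3 libraries for each stage and genotype. Lines show the SD of the chain below, where its share is over 8%. Lama5, the top chain of the alpha stacks, is drawn without a line. Lama5 takes over most of the alpha share in adults (56.7% in wt) from Lama4, and Lamb2 nearly all of the beta share, with Lamb1 at 2.9% in adult wt; at P9 the Lamb1 share is 25.9% in KO and 39.5% in wt.

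Loss of Sox17 was compared with wt at each stage, and P9 was the stage with most calls. There, the multiplexins Col18a1 and Col15a1, the FACIT chain Col14a1 and 4 fibrillar chains fell, and Fn1, the laminin chains Lamb2, Lamc1 and Lamc3, and Col7a1 rose. The collagen IV pair, the nidogens, Lama4, Lama5, Hspg2 and Sparc did not pass the test with the main scaling. Of the 60 genes, 8 were higher and 12 lower in KO, 33.3% beside 28% of all genes tested (13.5% higher, 14.6% lower), a share near the background.

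Col18a1 had 532, 533 and 538 CPM in the P9 wt libraries and 91.3, 96.9 and 81.7 in KO (log2 fold change −2.57, SE 0.15, adjusted p = 2.2e-11), and Col15a1 had 14.2, 14.2 and 20 against 2.19, 3.58 and 5.24 (−2.06, SE 0.27, adjusted p = 3.4e-06). The KO level of Col18a1 was 16.8% of wt and that of Col15a1 22.7%. Col14a1 had 7.46, 7.64 and 7.07 CPM in wt and 1.6, 1.4 and 1.5 in KO (−2.22, SE 0.29, adjusted p = 2.1e-06). In all 3 genes every KO library was below every wt library by a wide margin.

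Fn1 had 5738.7, 5978 and 5780.2 CPM in wt and 13067.4, 12519.6 and 11723.4 in KO (1.09, SE 0.13, adjusted p = 1.2e-06), and Lamc1 1199.8, 1135.1 and 1284.8 against 1760.7, 1999.9 and 1553.7 (0.55, SE 0.15, adjusted p = 0.0069). Lamb2 had 707, 671 and 718 CPM in wt and 950, 1116.8 and 912 in KO (0.51, SE 0.11, adjusted p = 0.0015), and Lamc3, a gamma chain also made in neural tissue, 86.7, 62.1 and 83.5 against 136, 151 and 211 (1.10, SE 0.29, adjusted p = 0.0055). None of these groups overlapped. With the endothelial scaling the rises of Lamc1 (0.13, adjusted p = 0.42), Lamb2 (0.09, adjusted p = 0.54) and Lamc3 (0.70, adjusted p = 0.062) were no longer called, while Fn1 (0.67) and Col7a1 (0.84) were.

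Lamb1 was lower in every KO library, at 574, 689 and 454 CPM against 743, 695 and 796, and just missed the test (−0.38, SE 0.14, adjusted p = 0.051). The ratio per kb of Lamb2 to Lamb1 was accordingly 2.7, 2.64 and 3.28 in P9 KO libraries and 1.55, 1.57 and 1.47 in wt, without overlap. The ratio of Col4a2 to Col4a1 was 1.12, 0.973 and 1.15 in KO and 0.878, 0.928 and 0.915 in wt, also without overlap. Neither gene passed the test (Col4a1 −0.14, SE 0.17, adjusted p = 0.57, and Col4a2 0.09, SE 0.14, adjusted p = 0.68). At E15.5 this ratio lay the other way, at 0.733, 0.744 and 0.758 in KO and 0.777, 0.784 and 0.802 in wt, without overlap. At P5 and in adults the groups overlapped. The ratios were not tested, and 3 libraries on each side can separate without a true difference. Nid1 (0.05, SE 0.12), Nid2 (0.22, SE 0.12), Lama4 (−0.01, SE 0.13), Lama5 (0.12, SE 0.39), Hspg2 (−0.25, SE 0.13) and Sparc (−0.28, SE 0.13) stayed within 0.3 of 0 on the log2 scale with the main scaling. With the endothelial scaling the members called lower went from 12 to 29, so members not called in the main fit were called lower. Values of these core genes with that scaling are not given here.

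Agrn had 2329, 2348.6 and 2573 CPM in wt and 1784.1, 1443.7 and 2122.4 in KO (−0.44, SE 0.13, adjusted p = 0.011). That call ended without P9 wt replicate 3 (0.053), without P9 KO replicate 2 (0.063) or when just the 6 libraries were fitted (0.06). Col7a1, the anchoring fibril collagen of skin, had 48.7, 39.9 and 48.9 CPM in wt and 93.8, 155 and 82.7 in KO (1.27, SE 0.23, adjusted p = 1.5e-04), and Lama3 14.7, 14.7 and 16.7 against 7.15, 6.01 and 12 (−0.85, SE 0.22, adjusted p = 0.0040). Neither of these 2 lost its call without any 1 library.

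The fibrillar chains that fell were Col5a2 (118, 101 and 119 CPM in wt, 47.9, 66.7 and 64.1 in KO, −0.91, SE 0.15, adjusted p = 4.3e-05), Col3a1 (143 ± 19.6 and 65.9 ± 8.22, −1.12, adjusted p = 0.0086), Col1a1 (40.9 ± 6.4 and 15 ± 3.41, −1.45, adjusted p = 0.012) and Col1a2. Col1a2 had 147 ± 22.6 and 83.1 ± 19.5 CPM (−0.82, SE 0.30, adjusted p = 0.048), a call that ended without P9 wt replicate 1 (0.14), P9 wt replicate 3 (0.11), P9 KO replicate 1 (0.17), P9 KO replicate 3 (0.061) or any 1 of 14 libraries of other stages (0.051 to 0.056), and in DESeq2 (0.085). Markers of the cells that usually make these chains also changed. Summed pericyte markers were 3261.3 to 4388.1 CPM in wt and 1006.5 to 2243.4 in KO, with 9 of 13 lower, among them Cox4i2, Rgs5 and Ndufa4l2 (−1.96, −1.70 and −1.39). Of the fibroblast markers 7 of 12 were lower, among them Ogn (−1.51), Dcn (−1.37) and Lum (−1.98), although their sums overlapped (1021.5 to 1175.5 CPM in wt, 757 to 1363 in KO), and of the smooth muscle markers 6 of 8 were lower and 1, Smtn, was higher (0.56). The smooth muscle sums overlapped and lay mostly higher in KO, at 943 to 1062.6 CPM against 842 to 953 in wt, and Smtn had the highest mean of the list. Their part in the result was not tested.

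The remaining calls at P9 were Col26a1 (−0.95), Col8a1 (−0.66), Col4a3 (−0.62), Col5a3 (1.00), Col22a1 (0.86) and Col6a6 (1.39), each of which ended without at least 1 library. For Col26a1 these were P9 wt replicate 3 (0.068) and P9 KO replicate 1 (0.091), and for Col4a3 P9 wt replicates 1 (0.056) and 3 (0.071) and P9 KO replicates 1 (0.06) and 2 (0.095). For Col8a1 they were every P9 wt library (0.097, 0.064 and 0.13), P9 KO replicates 2 (0.056) and 3 (0.21) and 10 libraries of other stages (0.05 to 0.056). For Col5a3 they were every P9 wt library (0.068, 0.095 and 0.086) and P9 KO replicate 3 (0.29), for Col22a1 P9 wt replicates 2 (0.1) and 3 (0.13) and every P9 KO library (0.066, 0.052 and 0.1). Col6a6, at 0.211 ± 0.126 CPM in wt and 0.736 ± 0.52 in KO, lost it without any P9 wt library (0.17, 0.066 and 0.064), P9 KO replicate 3 (0.33) or adult wt replicate 3 (0.05), and with the replicate block (0.054). Fitting just the 6 libraries ended the calls of Col22a1 (0.065), Col4a3 (0.057), Col6a6 (0.11), Col5a3 (0.059) and Col8a1 (0.057), and the endothelial scaling those of Col22a1 (0.21), Col6a6 (0.086) and Col5a3 (0.17). In all, 12 of the 20 calls held without any 1 of the 6 compared libraries. With the size factors of DESeq2 18 of the 20 held, and with the test of DESeq2 19.

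The endothelial markers themselves were higher in P9 KO libraries, at a summed 23330.7 to 28717.9 CPM against 20008.5 to 20430.3 in wt, with 7 of 14 higher (Clec14a 2.15, Robo4 1.04, Egfl7 0.75) and 2 lower. Of the astrocyte markers 6 of 8 were higher, led by Slc1a2 (1.60), Aldoc (1.54) and Fgfr3 (1.20). With the endothelial scaling the median of all genes was −0.369 and the split of called members moved from 8 higher and 12 lower to 2 higher and 29 lower. The falls of Col18a1 (−2.99), Col15a1 (−2.44) and Col14a1 (−2.56) were called with that scaling too.

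**Figure D4:**
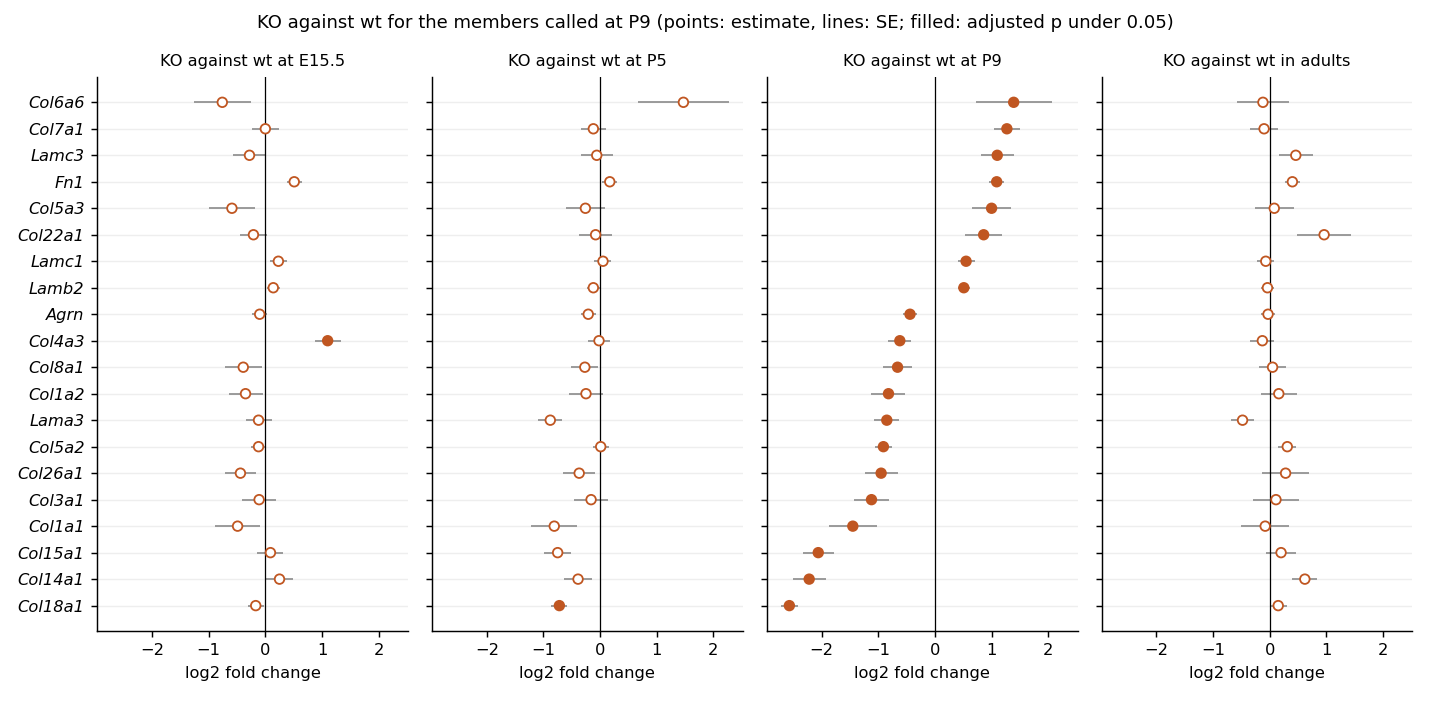
Log2 fold change of KO against wt (horizontal axes) at E15.5, P5, P9 and in adults for the 20 genes called at P9; points are edgeR estimates, lines are SE, and filled points passed an adjusted p under 0.05. Only Col4a3 at E15.5 and Col18a1 at P5 are filled outside the P9 panel; at P9 the points run from −2.57 for Col18a1 to 1.39 for Col6a6.

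At E15.5 the single call was Col4a3, a minor collagen IV chain best known from kidney and lung. It had 2.49, 3.08 and 2.18 CPM in wt and 6.37, 4.42 and 6.35 in KO (1.10, SE 0.23, adjusted p = 0.015), beside 0.548% of all genes called. The call ended without E15.5 wt replicate 1 (0.098) or 3 (0.14), without E15.5 KO replicate 1 (0.092) or 3 (0.077), when just the 6 libraries were fitted (0.29), with the endothelial scaling (0.057) and without both libraries numbered 3 (0.39). Its head-to-head partner Col4a4 had 1.24 ± 0.662 CPM in wt and 1.32 ± 0.795 in KO. Fn1 had 1258.1, 1579.2 and 1347.8 CPM in wt and 2218.3, 1738.4 and 1998.9 in KO, without overlap (0.51, SE 0.13, adjusted p = 0.11). Red cell markers were lower in KO at this stage, 5 of 7, at a summed 532 to 833 CPM against 2580.2 to 3475.2, and their part was not tested.

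At P5 the single call was Col18a1, with 1029.9, 1117.8 and 916 CPM in wt and 513, 648 and 702 in KO (−0.72, SE 0.14, adjusted p = 0.016), beside 0.53% of all genes called. It ended without P5 wt replicate 1 (0.085), P5 wt replicate 2 (0.075) or P5 KO replicate 1 (0.17). Lama3 had 24.2, 20.6 and 26 CPM in wt and 11.7, 12.4 and 14.1 in KO, without overlap (−0.88, SE 0.21, adjusted p = 0.053), and Col15a1 37.7, 36.9 and 43.2 against 17.7, 25.7 and 26.2 (−0.75, SE 0.24, adjusted p = 0.25). In 23 members the KO and wt libraries did not overlap, 21 of them with KO lower, beside 15% of all genes without overlap and 7.23% with KO lower. The median log2 fold change was −0.26 over the 60 genes and 0 over all genes tested. Medians of the cell type marker lists ran from −0.54 (choroid plexus) and −0.43 (smooth muscle) to 0.05 (endothelial). Of the smooth muscle markers 1 of 8 was called lower and of the endothelial markers 1 of 14 higher, and no marker of the other lists was called. Their part in the result was not tested.

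In adults no member was called by edgeR's quasi-likelihood test, nor by DESeq2, beside 0.0874% of all genes called. At an unadjusted p under 0.05 there were 4 of 60 members, beside 604 of all genes (3.52%): Col14a1 (0.62, SE 0.22), Col22a1 (0.96, SE 0.48), Fn1 (0.40, SE 0.13) and Lama3 (−0.48, SE 0.20). Fn1 had 1902.9, 1713.8 and 1695.4 CPM in wt and 2222.4, 2559.5 and 2212.2 in KO (adjusted p = 0.91). Col18a1 had 53.6, 46.6 and 51.1 CPM in wt and 62.4, 50.6 and 54.9 in KO (0.15, SE 0.15).

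**Figure D5:**
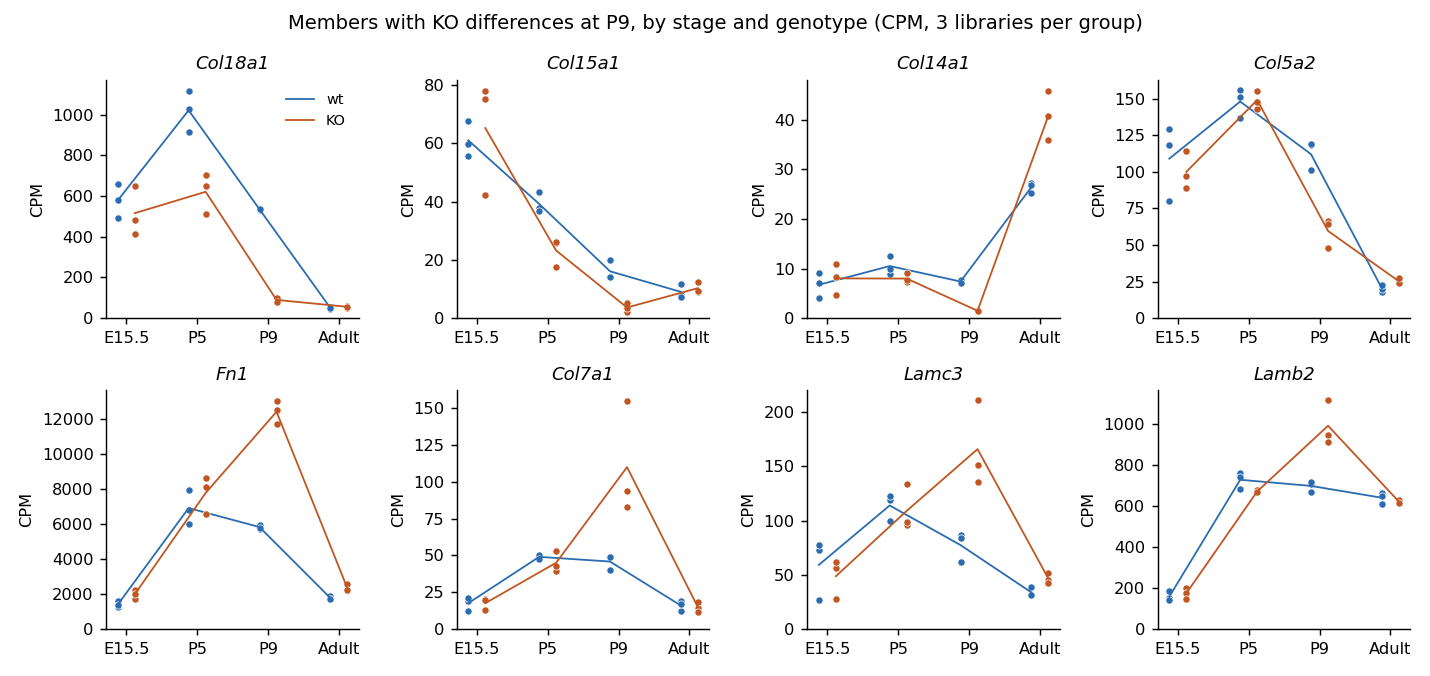
CPM (vertical axes, each from 0) by stage (horizontal axes) of 8 genes called in KO at P9, with 1 point per library, 3 libraries per group and lines through the means for wt (blue) and KO (orange). Col18a1 has a mean of 90 CPM in P9 KO, against 535 in P9 wt and 50.4 in adult wt, and Fn1 in P9 KO reaches 12436.8 CPM, above every other group.

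Whether the KO effect differed between the stages was tested with an interaction over the 4 stages. It passed for 9 of the 60 genes, 15% beside 13.5% of all genes tested, a share near the background: Col18a1, Col14a1, Col15a1, Col5a2, Col4a3, Fn1, Col7a1, Lamb2 and Col6a6. Taken against 1 other stage at a time, the P9 effect differed for 10 members from E15.5, for 7 from P5 and for 7 from adults, beside 15.8%, 15.7% and 13.2% of all genes. Against E15.5, the P9 effect was lower for Col18a1 by −2.40 (SE 0.21, adjusted p = 3.2e-08), for Col14a1 by −2.47 and for Col15a1 by −2.16. Against P5 it was lower for Col18a1 by −1.85 (SE 0.20, adjusted p = 1.2e-06), and higher for Fn1 by 0.92 (SE 0.19, adjusted p = 0.0014) and for Col7a1 by 1.39 (SE 0.32, adjusted p = 0.0040). Against adults it was lower for Col18a1 by −2.72, for Col14a1 by −2.84, for Col15a1 by −2.26 and for Col5a2 by −1.22, and higher for Fn1 by 0.70 (adjusted p = 0.013, or 0.14 with the endothelial scaling).

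Genes around the matrix were described with 4 lists, whose counts are read beside the 66.6% of all genes called from E15.5 to P5, 5.12% from P5 to P9, 61.1% from P9 to the adult and 28% in KO at P9. Of 28 tested receptors for matrix proteins, 19 rose and 3 fell from E15.5 to P5 (78.6% called), 0 rose and 1 fell from P5 to P9, and 8 rose and 15 fell from P9 to the adult (82.1%). With the endothelial scaling these became 3 and 17 from E15.5 to P5 and 12 and 11 from P9 to the adult. The laminin receptor chain Itgb4 rose from 8.6 to 208 CPM at that last step (4.58, SE 0.24), while the fibronectin receptor chains Itga5 (−2.55) and Itga4 (−3.69) fell. In KO at P9, 5 receptors were higher and 6 lower (39.3%), and 2 and 14 with the endothelial scaling. Itga3 rose from 56.2 to 190 CPM (1.75, SE 0.15, adjusted p = 8.5e-09) and Itga6 from 190 to 311 (0.71, SE 0.11, adjusted p = 2.1e-05), both alpha chains of laminin-binding integrins, and Itga2, of a collagen-binding integrin, fell from 10.7 to 1.49 (−2.76, SE 0.28, adjusted p = 4.4e-08).

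Of 37 genes for making and cross-linking collagen, 8 rose and 19 fell from P9 to the adult (73%), or 14 and 10 with the endothelial scaling. Among the falls were Pxdn (−2.26), whose product cross-links collagen IV, Fkbp10 (−3.42) and Loxl2 (−4.16). In KO at P9, 2 were higher and 7 lower (24.3%, below the share of all genes), or 1 and 24 with that scaling, with P4ha2 at 1.52, Colgalt2 at −0.85 and Crtap at −0.62. Of 32 other basement membrane proteins, 8 rose and 21 fell from P9 to the adult (90.6%), or 9 and 15 with the endothelial scaling, and in KO at P9 5 were higher and 11 lower (50%), or 4 and 17. Fbln2, fibulin-2, was called in KO both at P5 (134 against 267 CPM, −0.99, SE 0.18, adjusted p = 0.0079) and at P9 (36.7 against 169, −2.20, SE 0.19, adjusted p = 7.3e-09). Vwa2 rose at P9 from 0.242 CPM in wt (5.43, SE 0.45, adjusted p = 6.1e-09). That wt level is at the floor of 3 counts (0.151 to 0.244 CPM), so the size of its fold change is uncertain. Mmrn1 was higher in KO at E15.5 (0.76, adjusted p = 0.035) and at P9 (1.63, adjusted p = 1.3e-07), and Fbln5 lower at E15.5 (−1.43, adjusted p = 0.0045) and at P9 (−1.09, adjusted p = 0.00094). At E15.5 the endothelial scaling left 0 genes of this list called higher and 3 called lower, so Mmrn1 lost its call there.

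Of 14 microfibril and elastic fibre genes, 5 rose and 3 fell from E15.5 to P5 (57.1%, below the share of all genes), or 2 and 10 with the endothelial scaling. Eln, elastin, rose from 33.3 to 329 CPM (3.30, SE 0.26) with the main scaling, and 6 genes rose and 6 fell from P9 to the adult (85.7%), or 6 and 5. In KO, Fbn1, the main fibrillin, was lower at P5 (23 against 38.4 CPM, −0.74, SE 0.16, adjusted p = 0.024), and at P9 2 genes of the list were higher and 4 lower (42.9%), or 1 and 6 with the endothelial scaling, among them Mfap2 (−1.05), Emilin1 (−0.90) and Ltbp1 (−0.82). No gene of the 4 lists was called in KO adults.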

How the data were processed

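Polyadenylated RNA was sequenced as strand-specific libraries on an Ion Proton instrument, per the labels' protocols. The tools listed in the submitters' processing notes are STAR 2.5.3a, Trim Galore 0.4.1, SAMtools 1.5 and FastQC, with build mm10. The deposited tables hold raw counts per gene on the forward strand, which were used, and the authors' FPKM and TPM columns, which were not; FPKM recomputed from the deposited counts differed by a relative 6.3e-14 at most. TMM factors ran from 0.861 to 1.137. The test was edgeR 4.0.16 (quasi-likelihood, R 4.3.3, prior count 2) on all 24 libraries, with the 8 groups as the only term, which leaves 16 residual degrees of freedom. A gene was tested where its group mean reached 10 counts in any group. Tests were two-sided, with Benjamini-Hochberg adjustment over all 17159 genes, and an adjusted p under 0.05 is a call. The floor of 3 counts is 0.151 to 0.244 CPM. The fit was tested on simulated data. Tables were handled with Python 3.11.15 and pandas 2.3.3 and drawn with matplotlib 3.10.9. The members and the lists were chosen with earlier results of these data known. Full values are given per comparison for up to 12 called members of high level per length and for abundant core genes, and up to 3 called genes are named per list; other names, among them those of cell type markers, were chosen after their values were seen. Alternatives were size factors and test of DESeq2 1.42.0, no low-count filter, a replicate block, just the 6 compared libraries, all but the P9 libraries, and each library left out. Scaling to 14 endothelial markers, also for the lists, and dropping replicate 3 of both E15.5 groups were added after seeing the data. Members not named enter the counts only, and 1 result is not reported here.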

Additional observations from a re-analysis of the deposited data

Results flagged for a closer look

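For 9 genes the effect of Sox17 loss differed between the 4 stages, by edgeR's interaction test over all 4 stages, with adjusted p = 1.5e-08 for Col18a1, 2.6e-05 for Col14a1, 0.00025 for Col15a1, 0.0012 for Col5a2, 0.0019 for Col4a3, 0.006 for Fn1, 0.0062 for Col7a1, 0.029 for Lamb2 and 0.036 for Col6a6. Col4a3 was 1.10 at E15.5 and −0.62 at P9 on the log2 scale, a difference of −1.72 (SE 0.31). Col14a1 was 0.25 at E15.5, −0.39 at P5, −2.22 at P9 and 0.62 in adults. The first 7 of the 9 kept the call in every alternative run. Lamb2 lost it with the endothelial scaling (0.44), without any P9 wt library (0.082, 0.096 and 0.059) and without P9 KO replicates 1 (0.053) and 2 (0.097). Col6a6, whose means were under 3 CPM in every group, lost it with the replicate block (0.051) and without any of 12 libraries, at an adjusted p of 0.05 to 0.077.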

How the results depend on the processing

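Calls among the 60 genes were few and unstable at E15.5 and P5. In KO at E15.5, 1 member was called, 2 with the DESeq2 test, 2 with no low-count filter, and 0 with just the 6 libraries, with the endothelial scaling or without replicate 3 of both groups, and leaving out single libraries gave 0 to 1. In KO at P5, 1 was called, 2 with the DESeq2 test, the replicate block or all but the P9 libraries, 3 without both E15.5 libraries numbered 3, and 7 with no filter or just the 6 libraries (0 to 2 leaving out single libraries). In KO at P9 the count was 20, 31 with the endothelial scaling, and 12 (without P9 wt replicate 3) to 23 leaving out single libraries. In KO adults it was 0, and 1 with just the 6 libraries. From P5 to P9 it was 7, 18 with no filter, 20 with just the 6 libraries, 15 without both E15.5 libraries numbered 3, and 3 (without P9 wt replicate 2) to 9 leaving out single libraries. The interaction gave 9, 21 with no filter, 14 without both E15.5 libraries numbered 3, and 7 to 12 leaving out single libraries. For these counts the cause was not tested.

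With the endothelial scaling 20 rises from E15.5 to P5 changed sign: Col14a1 −1.0, Col16a1 −0.93, Col7a1 −0.19, Col4a1 −0.43, Col4a2 −0.36, Col4a4 −0.41, Col4a5 −0.53, Col1a2 −0.86, Col5a2 −1.24, Lama4 −0.17, Lamb1 −0.52, Lamc3 −0.74, Col18a1 −0.85, Col8a2 −0.36, Nid1 −0.05, Nid2 −0.72, Col28a1 −0.59, Agrn −1.21, Hspg2 −0.14 and Col17a1 −0.26. From E15.5 to the adult 4 did: Col16a1 −0.01, Col9a3 −0.66, Col11a2 −0.17 and Fn1 −0.91. The scaling itself moves all genes, as the medians in the text show.

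The correlation of same-numbered KO and wt libraries was above 0.1 in 2 of the 12 pairs, both at E15.5. It ran from −0.081 (P9) to 0.091 (P5) at P5, P9 and in adults. At E15.5 it was 0.065, 0.368 and 0.486 for replicates 1, 2 and 3. There, KO replicates 2 and 3 each correlated best with the wt library of the same number, so the E15.5 libraries shared some structure by number. The replicate block gave 1, 2, 21 and 0 called members in KO at E15.5, P5, P9 and in adults. It ended the calls of Col6a6 in KO at P9 (0.054) and of Col17a1 from E15.5 to P5 (0.052), so 19 of the 20 calls at P9 held. Depth limits members near the floor, such as Col6a6 and Col19a1.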

Other observations

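Among the 12 members that fell from E15.5 to P5 in wt were several collagens of low level. Col25a1, a transmembrane collagen of neurons, went from 18.2, 19.3 and 12 CPM to 2.15, 2.18 and 2.04 (−2.89, SE 0.31), and the FACIT chain Col22a1 from 19.9, 25.7 and 11.5 to 2.35, 2.72 and 3.13 (−2.74, SE 0.27). All 7 neuron markers fell over the same interval (median −2.11), and their part in these falls was not tested. The collagen VIII chain Col8a1, found under endothelium, rose from 1.76, 2.9 and 1.24 CPM to 12.3, 13.7 and 14.5 (2.70, SE 0.28), and with the endothelial scaling it rose as well (1.10). Genes and values of this paragraph were chosen after they were seen.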
